A study of Homo sapiens with 9 samples.

Results

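A set of 9 transcriptional regulators of squamous (stratified) epithelium was followed through 9 RNA-seq libraries of EPC2 cells, a telomerase-immortalized line from esophageal epithelium. They were the grainyhead-like factors GRHL1, GRHL2 and GRHL3, the zinc-finger factors ZNF750, OVOL1, KLF4 and PRDM1, the homeodomain-only protein HOPX, and the leucine-zipper factor MAF. The 9 genes were chosen by name, and all 9 of 9 were found among the 24672 genes of the deposited tables and passed the filter on low counts. Their level was the read count summed over the rows of a gene and scaled by the normalized size of its library, in CPM.

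In stratified squamous epithelium, cells leave a basal, dividing layer, rise through suprabasal layers and end as flat barrier cells. A network of factors turns on keratins, desmosomal cadherins, transglutaminases and envelope proteins on the way. GRHL1 and GRHL3 are known for desmosome and barrier genes, GRHL2 for epithelial junctions, ZNF750 as a target of p63 that raises KLF4 and late differentiation genes, and OVOL1 as a repressor at the exit from proliferation. KLF4 is known for barrier formation, PRDM1 (BLIMP1) for the last steps of the granular layer, HOPX for suprabasal layers, where it acts without binding DNA itself, and MAF for driving epidermal differentiation.

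The 9 libraries fall into 3 groups of 3, all of EPC2 cells in keratinocyte serum-free medium that held EGF at 1 ng/mL and pituitary extract at 50 ug/mL. ALI control cells carried a non-silencing control, grew on permeable supports, were switched from 0.09 to 1.8 mM calcium on day 2, met the air-liquid interface (ALI) on day 7 and were harvested on day 14. ALI silenced cells were cultured the same way with SPINK7, an esophageal protease inhibitor gene, silenced by a means the labels do not give. Monolayer cells carried the non-silencing control and were kept undifferentiated, so calcium, air, support and time in culture cannot be told apart between the ALI groups and the monolayer, whose own calcium and harvest day the labels do not give. EPC2 is a single line. Nothing in the labels ties replicates to different cultures, and the spread behind each p-value may therefore be technical.

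Between 7641960 and 14009746 reads were counted per library, and 3 counts, the limit that a count of 0 allows, corresponded to 0.206 to 0.402 CPM. SPINK7 lay between 20.9 and 38.6 CPM in the ALI silenced libraries and between 225 and 261 CPM in the ALI control libraries (log2 fold change -2.95 ± 0.30 (SE), adjusted p = 0.00246, edgeR). All 12 esophageal keratinocyte markers were tested and none was at 0 in any library, with TP63 at 220 to 384 CPM and SOX2 at 0.958 to 12.1 CPM. In the monolayer KRT13 (0.213 to 0.607 CPM) and KRT4 (0.506 to 1.28 CPM) were near the floor. Of the 12 markers 7 rose from monolayer to ALI control, and KRT4 fell on silencing. Of 7 leukocyte markers 3 to 5 were at 0 in a library, PTPRC in all 9, while CD68 reached 15.4 to 87.0 CPM and CD14 up to 11.1 CPM. Of 8 fibroblast markers 3 to 6 were at 0, LUM in all 9, while COL1A1 reached 11.6 to 184 CPM. Library 2 of both ALI groups stood apart from the other ALI libraries on the second principal component (at -78.5 and -25.5, against 14.3 to 55.0). Library numbers are those of the labels, from which a few file names depart. Monolayer libraries 2 and 3 differed from each other by a chi-square per degree of freedom of 1.91 over 12027 genes, against 16.8 or more for every other pair within a group. The edgeR fit counted them as 2 separate libraries, so its p-values against the monolayer may rest on fewer than 3 independent cultures.

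Promoter windows are shown for HOPX, GRHL3 and PRDM1, because the deposited rows of these 3 genes have different starts and their reads were spread over them unevenly. The windows are the 250 bases before each start in the RefSeq table of build GRCh38.p14, 5′ to 3′ on the gene's strand. The deposited coordinates are of hg19, so windows and rows were not matched. Capitals mark matches, on either strand, to CACCC (a core read by KLF factors), GAAAG (PRDM1), TGCTGA (a MAF half-site), CCNNAGGC (ZNF750), TGANTCA (AP-1), AACNNGTT (GRHL) or CCGTTA (OVOL).
HOPX start A, chr4:56681297-56681546, minus strand: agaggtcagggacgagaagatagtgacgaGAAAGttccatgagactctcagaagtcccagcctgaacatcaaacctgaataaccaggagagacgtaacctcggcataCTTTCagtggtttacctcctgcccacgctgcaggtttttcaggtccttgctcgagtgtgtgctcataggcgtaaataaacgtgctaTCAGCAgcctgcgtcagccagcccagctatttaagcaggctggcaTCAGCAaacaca
HOPX start B, chr4:56656518-56656767, minus strand: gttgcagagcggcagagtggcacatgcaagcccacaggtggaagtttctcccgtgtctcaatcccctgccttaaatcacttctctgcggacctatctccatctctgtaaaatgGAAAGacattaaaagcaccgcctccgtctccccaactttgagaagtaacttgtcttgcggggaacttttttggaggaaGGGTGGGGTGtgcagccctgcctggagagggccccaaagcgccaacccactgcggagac
GRHL3 start A, chr1:24319107-24319356, plus strand: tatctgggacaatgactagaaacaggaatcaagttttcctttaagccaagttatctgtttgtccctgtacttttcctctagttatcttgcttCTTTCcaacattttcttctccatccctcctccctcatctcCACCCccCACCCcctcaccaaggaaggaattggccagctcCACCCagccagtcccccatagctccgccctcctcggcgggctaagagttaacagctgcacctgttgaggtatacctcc
GRHL3 start B, chr1:24322790-24323039, plus strand: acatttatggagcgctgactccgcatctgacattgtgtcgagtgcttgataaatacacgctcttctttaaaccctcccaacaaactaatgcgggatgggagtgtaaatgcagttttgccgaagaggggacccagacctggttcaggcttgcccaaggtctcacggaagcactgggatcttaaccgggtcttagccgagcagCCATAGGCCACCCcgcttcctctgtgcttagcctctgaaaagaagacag
PRDM1 start A, chr6:106086086-106086335, plus strand: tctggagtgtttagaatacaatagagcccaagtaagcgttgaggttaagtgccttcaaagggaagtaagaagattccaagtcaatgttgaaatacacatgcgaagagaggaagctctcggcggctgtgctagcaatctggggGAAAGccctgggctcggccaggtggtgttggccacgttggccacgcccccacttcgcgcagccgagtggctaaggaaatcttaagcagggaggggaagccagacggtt
PRDM1 start B, chr6:106098691-106098940, plus strand: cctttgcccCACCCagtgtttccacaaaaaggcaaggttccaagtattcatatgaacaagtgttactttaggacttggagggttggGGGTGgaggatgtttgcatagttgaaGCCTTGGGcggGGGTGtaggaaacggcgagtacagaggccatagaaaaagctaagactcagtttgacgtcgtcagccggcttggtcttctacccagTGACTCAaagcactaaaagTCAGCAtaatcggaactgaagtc
The windows of one gene differed in what they held. HOPX start A carried MAF half-sites and GAAAG, whereas start B carried CACCC and GAAAG, and GRHL3 start A held CACCC 3 times. PRDM1 start A carried only GAAAG of the 7 motifs, whereas start B carried matches for KLF, MAF, ZNF750 and AP-1, the last in no other window of the 9. The table had 9 windows for 6 of the factors (GRHL1, GRHL3, KLF4, PRDM1, HOPX and MAF). CACCC was in 4 of the 9 windows and in 54.7% of the 35116 windows of this length searched. GAAAG was in 5 of 9 and 48.9% of all, CCNNAGGC in 4 of 9 and 23.5% of all, TGCTGA in 3 of 9 and 14.0% of all, and TGANTCA in 1 of 9 and 6.57% of all. Neither AACNNGTT (3.0% of all windows) nor CCGTTA (2.45%) was in any of the 9. A match is a match of letters and says nothing of binding. No window for GRHL2, OVOL1 or ZNF750 was used here.

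The first comparison, ALI control against monolayer, shows which of these factors moved when control cells stratified. Of the 9, 8 rose: HOPX, GRHL1, OVOL1 and ZNF750 from near the detection floor, GRHL3 by 15.9-fold in the fit, and PRDM1, KLF4 and GRHL2 by smaller steps. MAF was lower in the ALI libraries, and its difference did not pass the threshold (log2 fold change -1.01 ± 0.42 (SE), adjusted p = 0.0768). In this comparison 40.5% of the 12806 tested genes passed an adjusted p of 0.05 in edgeR's quasi-likelihood test (2601 higher and 2589 lower). In 57.3% the groups did not overlap, in either direction, as in all 9 factors. The median log2 fold change of the 9 was 3.99, beside 0.03 for all genes tested. In bulk RNA, fewer cells expressing a gene and less RNA per cell cannot be told apart, here and in the comparisons that follow.

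**Figure D1:**
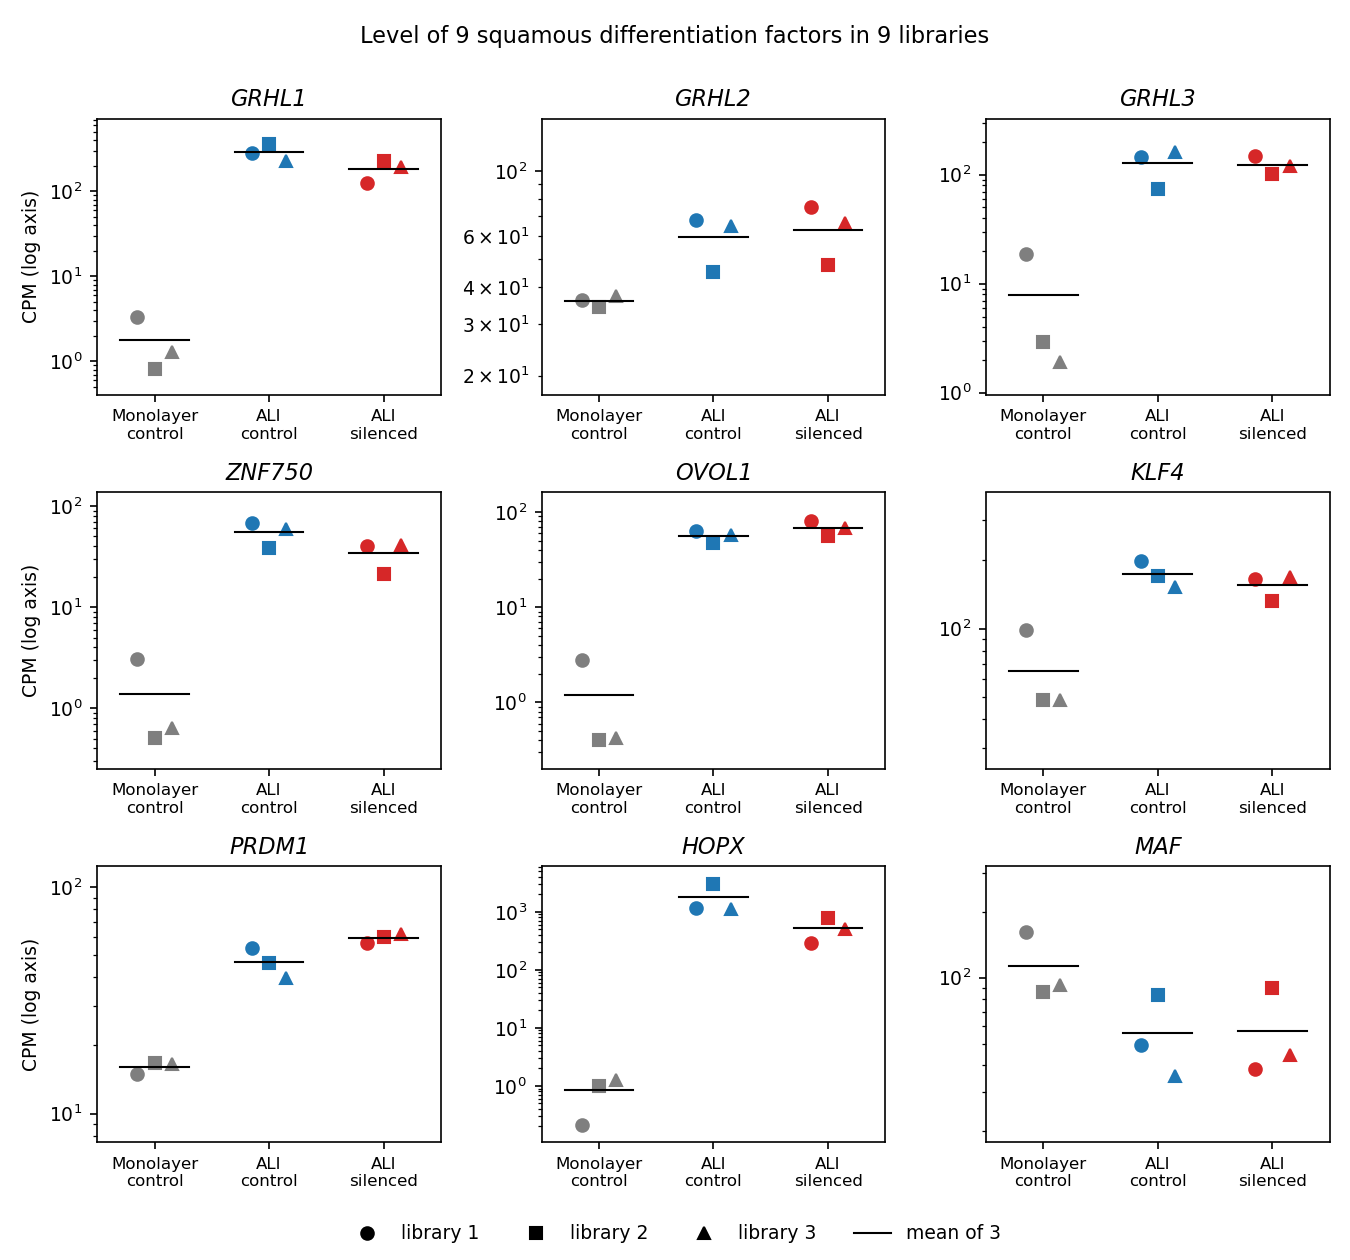
CPM on a log axis (y) of each factor in the 3 groups (x), 1 point per library with its shape giving the library number and a line at the mean of 3. The monolayer points lie below the ALI points for 8 factors, while MAF is high in the monolayer. HOPX spans 0.212 to 3040 CPM.

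GRHL1 (hg19 chr2:10091792-10142412) measured 3.33, 0.809 and 1.28 CPM in monolayer libraries 1, 2 and 3 and 279, 358 and 229 CPM in ALI control libraries 1, 2 and 3. No monolayer library came within the ALI range, and the log2 fold change was 7.25 ± 0.53 (SE, adjusted p = 7.72e-06). GRHL1, whose published target DSG1 encodes a desmosomal cadherin, was the most changed of the grainyhead-like factors by the fitted estimate.

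GRHL3 (chr1:24645812-24690970), a factor of barrier formation with the transglutaminase gene TGM1 among its published targets, was at 18.8, 2.93 and 1.92 CPM in the monolayer. It reached 147, 74.7 and 163 CPM in ALI control. The rise was 3.99 ± 0.74 on the log2 scale (SE, adjusted p = 0.00228), and monolayer library 1 was well above the other 2, yet below every ALI library. C1orf201, on the other strand, overlaps GRHL3 and had 104 to 392 counts per library, and the use of strand in counting is not given.

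GRHL2, which holds up junction genes such as CDH1, was present before stratification, at 36.1, 34.4 and 37.4 CPM in the monolayer. In ALI control it was at 67.8, 45.2 and 64.8 CPM, a rise of 0.72 ± 0.23 (log2, SE, adjusted p = 0.0318) with no overlap. The call for GRHL2 was lost without ALI control library 1 (adjusted p = 0.0966) or 3 (0.0703) and without monolayer library 1 (0.0828), 2 (0.104) or 3 (0.0825), within a range of 0.000462 to 0.143 over 20 alternatives.

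ZNF750 (chr17:80787310-80797931) and OVOL1 (chr11:65554505-65564690) also rose from low monolayer levels. ZNF750 was at 3.05, 0.506 and 0.639 CPM in the monolayer and at 68.0, 38.2 and 59.7 CPM in ALI control (log2 fold change 5.21 ± 0.61 (SE), adjusted p = 0.000143). OVOL1 was at 2.76, 0.405 and 0.426 CPM in the monolayer and at 63.0, 47.0 and 57.4 CPM in ALI control (5.42 ± 0.58 (SE), adjusted p = 8.1e-05). In both genes monolayer library 1 was the highest of its group and lay far below the lowest ALI library. ZNF750 lies within TBCD, a gene of the other strand with 242 to 1001 counts per library, so part of its counts may belong to TBCD if strand was not used.

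KLF4 (chr9:110247133-110252047), a factor that raises barrier genes, was well expressed in the monolayer, at 98.7, 48.5 and 48.6 CPM. Its ALI control values were 199, 170 and 152 CPM, all higher than the monolayer (log2 fold change 1.41 ± 0.29 (SE), adjusted p = 0.00407). PRDM1 (chr6:106534195-106557814), a repressor, was at 14.9, 16.8 and 16.5 CPM in the monolayer and at 53.7, 46.2 and 39.9 CPM in ALI control (1.53 ± 0.19 (SE), adjusted p = 0.000199). PRDM1 thus had the tightest monolayer group after GRHL2, with coefficients of variation of 6.19% and 4.12%.

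HOPX (chr4:57514154-57547872) showed the largest rise of the 9 by the fitted estimate. The monolayer libraries held 3, 10 and 12 counts (0.212, 1.01 and 1.28 CPM). In ALI control the levels were 1156, 3040 and 1119 CPM. The log2 fold change was 11.12 ± 0.84 (SE, adjusted p = 9.85e-06), and the size of this fold rests on 25 counts in all 3 monolayer libraries.

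MAF (chr16:79627745-79634622) went the other way in its means. It was at 161, 86.1 and 92.2 CPM in the monolayer and at 49.2, 83.7 and 35.4 CPM in ALI control, so the groups did not overlap but ALI library 2 came within a few CPM of the monolayer. The difference passed the threshold without ALI control library 2 (adjusted p = 0.0246), without ALI silenced library 2 (0.0408) and without both (log2 fold change -1.42, adjusted p = 0.00117), in 6 of 20 alternatives in all, with a range of 0.00117 to 0.258.

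Monolayer library 1 set the size of several of these changes. It was above the mean of monolayers 2 and 3 by 7.74-fold for GRHL3, 6.65-fold for OVOL1, 5.32-fold for ZNF750, 3.19-fold for GRHL1, 2.03-fold for KLF4 and 1.81-fold for MAF, while GRHL2 (1.01) and PRDM1 (0.898) were near it and HOPX was lower (0.186). Without this library the rises were 8.10 for GRHL1, 7.03 for OVOL1, 6.57 for ZNF750, 5.72 for GRHL3, 1.84 for KLF4 and 10.57 for HOPX on the log2 scale, and the MAF difference was -0.68. The same library had the highest summed level of the 8 fibroblast markers, 186 CPM against 50.1 and 52.9 in the other monolayers and 12.2 to 49.2 in the ALI libraries. Of that, 184 CPM was COL1A1, and LUM was at 0. Its 15 proliferation genes summed to 133 CPM, against 177 and 185. The part of these in the levels of the factors was not tested.

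Levels of different genes were compared with the authors' RPKM, which divides by transcript length. In ALI control HOPX led with 1004 ± 510 RPKM (SD, n = 3), followed by GRHL1 (63.1 ± 9.86), KLF4 (47.2 ± 7.70) and GRHL3 (36.2 ± 15.1). GRHL1 exceeded KLF4 by more than either SD, whereas KLF4 and GRHL3 lay within their spread. GRHL3 exceeded the next, OVOL1, by more than its SD. OVOL1 (14.8 ± 3.06) and ZNF750 (14.0 ± 4.65) did not differ beyond theirs, nor did GRHL2 (9.10 ± 2.44), PRDM1 (7.32 ± 1.13) and MAF (6.89 ± 1.73) in neighbouring places. The order in the monolayer was another one. KLF4 (19.97 ± 8.73) and MAF (14.8 ± 5.35) led within their spread, then GRHL2 (6.18 ± 0.276), PRDM1 (2.87 ± 0.131) and GRHL3 (2.53 ± 3.03), while HOPX (0.619), GRHL1 (0.449), ZNF750 (0.392) and OVOL1 (0.355) came last with SDs of 0.331 to 0.425 RPKM. In ALI silenced cultures HOPX again led (345 ± 152), and KLF4 (45.9 ± 5.31), GRHL1 (43.9 ± 13.4) and GRHL3 (37.2 ± 6.42) lay within the widest of their SDs. OVOL1 stood at 19.4 ± 3.08, and GRHL2 (10.4 ± 2.18), PRDM1 (10.04 ± 0.602), ZNF750 (9.25 ± 2.93) and MAF (7.25 ± 3.68) followed without a gap beyond their spread.

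The second comparison, ALI silenced against ALI control, asks which of these factors moved when SPINK7 was silenced in stratified cultures. None of the 9 passed the threshold in edgeR, where 0.929% of the 12806 genes did (29 rose and 90 fell). At an unadjusted p of 0.05, 1 of the 9 passed, HOPX, which also passed in DESeq2. Of the 12806 genes, DESeq2 called 140 higher and 275 lower. The share of all genes under an unadjusted p of 0.05 was not counted, here or for the lists below. In 3 of the 9 the groups did not overlap (HOPX and GRHL1 lower, PRDM1 higher), a property of 12.1% of all genes. The median log2 fold change of the 9 was -0.05, beside 0.01 for all genes.

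**Figure D2:**
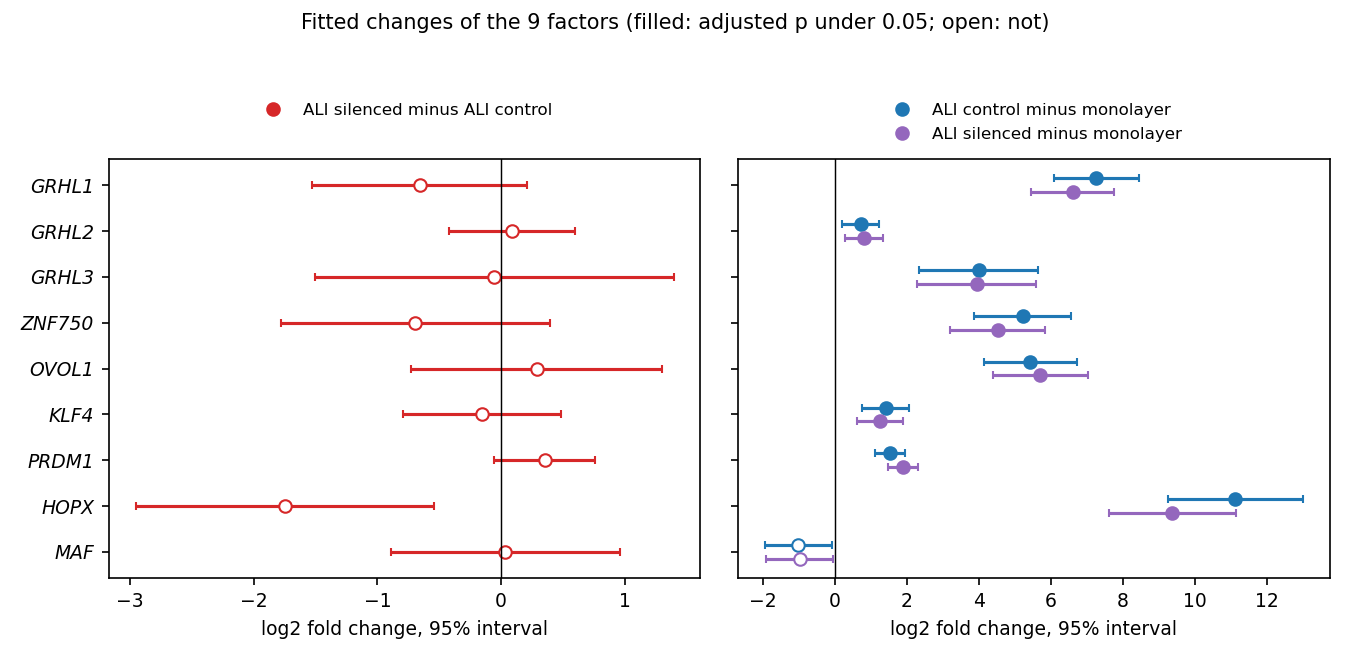
Fitted log2 fold changes (x) with 95% intervals for each factor (y), on the left for silencing within ALI cultures and on the right for both ALI groups against the monolayer. Filled points passed an adjusted p of 0.05. All silencing intervals except that of HOPX cross 0, and on the right only MAF is open.

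HOPX, the suprabasal homeodomain-only protein, had 289, 796 and 496 CPM in silenced libraries 1, 2 and 3, against 1156, 3040 and 1119 CPM in ALI control. The highest silenced library was below the lowest control library. The log2 fold change was -1.75 ± 0.54 (SE), with a 95% interval of -2.96 to -0.54, an unadjusted p of 0.00901 and an adjusted p of 0.232. The mean level in silenced cultures was 29.8% of the control mean. HOPX passed the threshold in 3 of 20 alternatives, among them DESeq2 (adjusted p = 0.038) and the fit that left out library 2 of both ALI groups (log2 fold change -1.54, adjusted p = 0.0164), with a range of 0.0164 to 0.689. Without ALI control library 2 alone the difference was -1.11 (adjusted p = 0.354).

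GRHL1 was at 125, 228 and 195 CPM in silenced cultures, just under the 229 CPM of the lowest control library. Its log2 fold change of -0.66 ± 0.39 (SE, 95% interval -1.53 to 0.21, adjusted p = 0.667) did not pass. PRDM1 was at 56.4, 60.1 and 61.8 CPM, above all control libraries, by 0.35 ± 0.18 (SE, interval -0.06 to 0.76, adjusted p = 0.611). These separations were narrow: the nearest libraries of the 2 groups differed by less than the range within the control group in both genes.

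ZNF750 was at 40.2, 21.4 and 41.3 CPM after silencing, overlapping control at the lower end (log2 fold change -0.69 ± 0.49 (SE), interval -1.78 to 0.39, adjusted p = 0.713). OVOL1 was at 80.0, 56.3 and 68.0 CPM (0.29 ± 0.46 (SE), interval -0.73 to 1.30, adjusted p = 0.863). Both ranges overlapped those of control.

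KLF4 was at 165, 133 and 169 CPM after silencing (log2 fold change -0.16 ± 0.29 (SE), interval -0.80 to 0.48, adjusted p = 0.878). GRHL2 was at 75.3, 47.5 and 66.1 CPM (0.09 ± 0.23, interval -0.42 to 0.60, adjusted p = 0.919). The intervals of these 2 genes were the narrowest after PRDM1. GRHL3 was at 148, 102 and 120 CPM (-0.05 ± 0.65, interval -1.50 to 1.39, adjusted p = 0.984). MAF was at 38.1, 89.9 and 44.1 CPM (0.04 ± 0.41, interval -0.89 to 0.96, adjusted p = 0.983). The spread between libraries left wide intervals for GRHL3 and MAF, and the sign of the differences of GRHL2, GRHL3 and MAF turned under some alternatives.

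A pattern common to the ALI groups lay between libraries. In library 2 of both ALI groups GRHL1, HOPX and MAF were highest of the 3, and GRHL2, GRHL3, OVOL1 and ZNF750 were lowest, so 7 of the 9 took an extreme place there in both groups. The share of all tested genes that did so was not counted. Over all tested genes, the deviations of these 2 libraries from their group means correlated at 0.577, so the pattern was not particular to the factors. HOPX in library 2 of ALI control was at 3040 CPM beside 1156 and 1119, and MAF at 83.7 beside 49.2 and 35.4. GRHL3 was at 74.7 beside 147 and 163 CPM. These libraries also differed in proliferation genes: the 15 genes summed to 151 CPM in ALI control library 2 (292 and 327 in the others) and to 107 CPM in silenced library 2 (663 and 611), with 6 and 13 counts of MKI67, the Ki-67 gene. The 12 keratinocyte markers summed to 27278 CPM in ALI control library 2 (47172 and 53488 in the others) and to 33946 CPM in silenced library 2 (59366 and 49880). KRT5, a basal keratin, was at 7019 CPM there in control (16929 and 19520 in the others) and at 12950 CPM after silencing (26879 and 20953). Not all of the 12 were lower there. PERP, DSG3 and SOX2 were highest of the 3 in control library 2, as was DSG3 in silenced library 2. The leukocyte marker CD14 was also highest in library 2, at 11.1 CPM in control library 2 (1.07 and 1.90) and 8.24 CPM in silenced library 2 (0.374 and 0.468). The part of these differences in the levels of the factors was not tested.

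**Figure D3:**
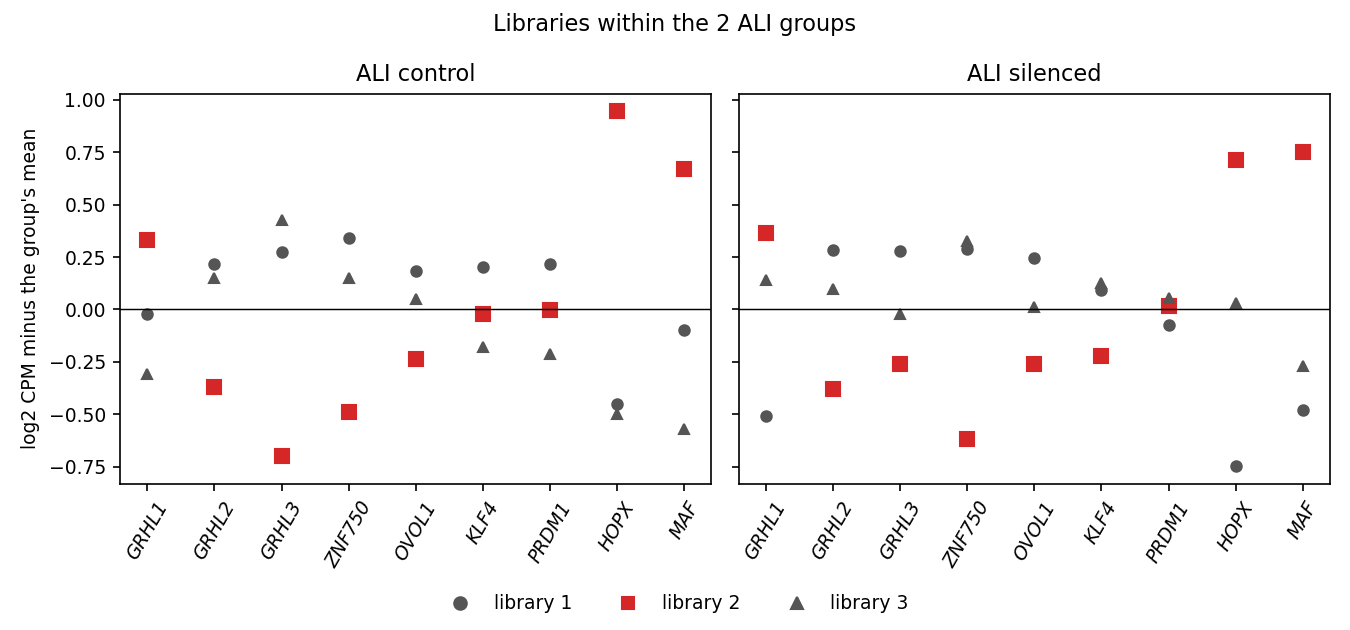
log2 CPM of each factor minus the mean of its group (y) for the 3 libraries of ALI control (left) and ALI silenced (right), with library 2 in red squares. Library 2 is at the top for GRHL1, HOPX and MAF and at the bottom for GRHL2, GRHL3, ZNF750 and OVOL1 in both panels.

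The third comparison set ALI silenced cultures against the monolayer, and it shares libraries with both others, so its values stand side by side with them and are no separate evidence. The same 8 factors rose, beside 31.7% of all genes called in either direction (2023 higher and 2035 lower of 12806). In 8 of the 9 the groups did not overlap, beside 55.7% of all genes in either direction. The rises on the log2 scale were 9.37 ± 0.80 for HOPX (SE, adjusted p = 2.47e-05), 6.60 ± 0.51 for GRHL1, 5.71 ± 0.59 for OVOL1 and 4.51 ± 0.60 for ZNF750. GRHL3 rose by 3.94 ± 0.74, PRDM1 by 1.89 ± 0.19, KLF4 by 1.25 ± 0.29 and GRHL2 by 0.81 ± 0.23 (adjusted p = 0.024). MAF differed by -0.98 ± 0.42 (SE, adjusted p = 0.0987), and silenced library 2, at 89.9 CPM, lay within the monolayer range. The median of the 9 was 3.94, beside 0.04 for all genes. The GRHL2 call was lost in 8 of 20 alternatives (adjusted p up to 0.0953), among them without silenced library 1 or 3 or any 1 monolayer library, and MAF passed in 3 of 20.

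The deposited tables hold HOPX, GRHL3 and PRDM1 in more than 1 transcript row, and the division of reads among rows is not described in the sources used here. The shares are therefore a description. The upstream HOPX row, which starts at 57547872, took 89.7%, 88.3% and 43.6% of the gene's counts in ALI control libraries 1, 2 and 3 and 20.3%, 84.2% and 68.6% in the silenced libraries. In CPM that row was at 1037, 2683 and 488 in control and at 58.6, 670 and 341 after silencing, and the downstream row, which starts at 57522688, at 119, 357 and 630 in control and 231, 126 and 156 after silencing. Each row alone thus overlapped between the groups, while their sum did not.

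GRHL3 reads were almost wholly in the row with the first start (24645812) in the ALI libraries and in monolayers 2 and 3, with 95.04% there in silenced library 3. In monolayer library 1, however, 261 counts (98.5%) were in the row that starts at 24646056, which had 0 counts in the 8 other libraries. This is the library in which GRHL3 was highest of the monolayers. PRDM1 reads in the row of the downstream start (106546737) took 0%, 47.3% and 25.2% in ALI control, 7.45%, 0% and 20.1% after silencing and 54.0%, 0% and 16.1% in the monolayer, and so varied within every group. The other 6 factors have 1 row each.

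**Figure D4:**
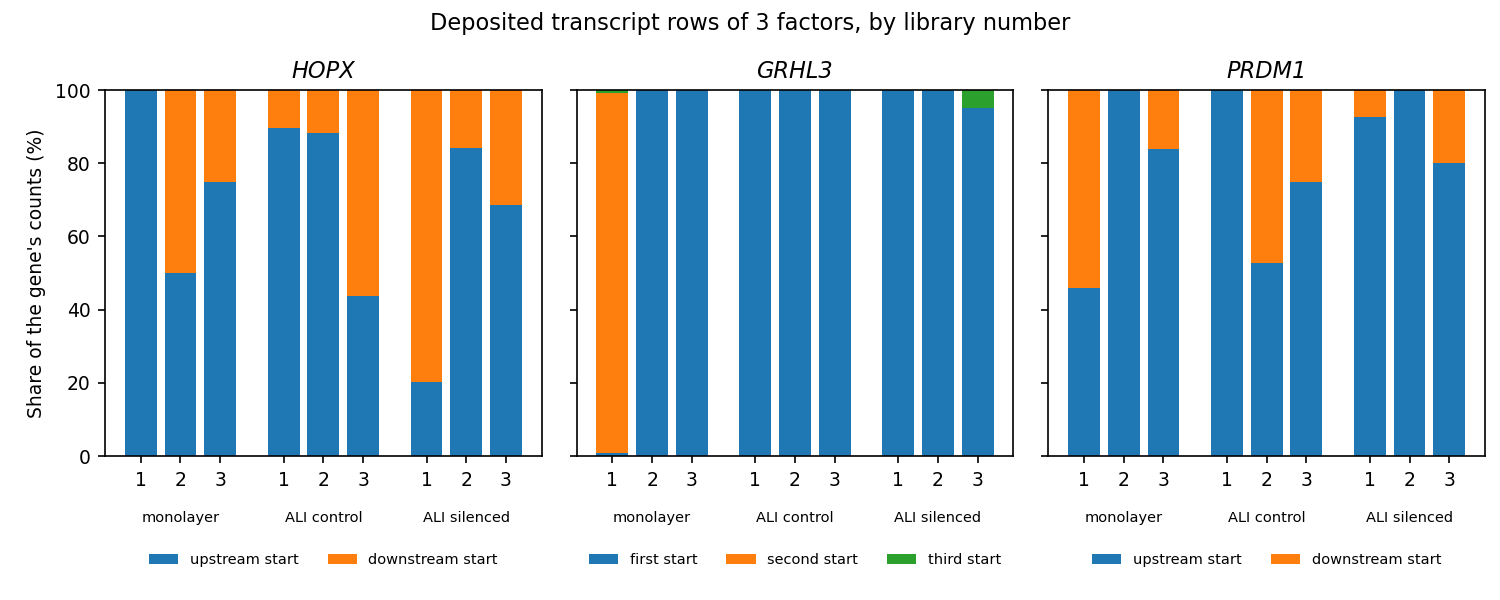
Share of a gene's counts (y, percent) in each deposited transcript row, as stacked bars for each library number (x) of the 3 groups. HOPX and PRDM1 rows vary within every group, and GRHL3 monolayer library 1 stands alone with 98.5% in the second start. HOPX bars of the monolayer rest on 3, 10 and 12 counts.

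Relatives of the factors were read from lists of whole families. Among 27 tested relatives of the KLF, PRDM, MAF, OVOL and grainyhead families, 4 rose and 9 fell from monolayer to ALI control, beside 40.5% of all genes called in either direction, with a median of -0.52. KLF5, a factor of proliferating epithelium, rose by 2.00 (adjusted p = 0.000124). PRDM8 fell by 5.26 (adjusted p = 3.17e-05) and PRDM11 fell by 1.97 (adjusted p = 0.00274) on the log2 scale.

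On silencing, none of the 27 relatives passed in edgeR, 2 did at an unadjusted p of 0.05, and 1 passed in DESeq2 and in limma-voom. The median log2 fold change of the 27 was 0.27, beside 0.01 for all genes.

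Among 30 tested squamous factors outside the 9, 18 rose and 1 fell from monolayer to ALI control, with a median of 1.08. Of all 12806 genes 40.5% were called, 2601 higher and 2589 lower, with a median of 0.03. ELF3, an epithelial ETS factor, had 1758 counts in ALI control against 1 in the monolayer, a ratio of 2363 with a counting interval of 424 to 93377 (exact, 95%, for counting error only). DLX5, a homeobox factor, had 219 counts against 1 (ratio 294, interval 52.3 to 11678). FOXN1, a forkhead factor of keratinocyte differentiation, rose by 6.05 ± 0.85 (log2, SE, adjusted p = 0.000463) and the nuclear receptor gene RORA by 5.14 ± 0.84 (adjusted p = 0.00112), while TFAP2A fell by 0.85. On silencing none of the 30 passed in edgeR, 4 did at an unadjusted p of 0.05, DESeq2 called 2 (1 higher, and BARX2 lower), and limma-voom called 1. With library 2 of both ALI groups left out, 1 rose and BARX2, DLX5 and ELF3 fell.

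Genes that the literature gives as raised by these factors were read beside them. Of 20 tested, 16 rose and 2 fell from monolayer to ALI control, beside the same 40.5% of all genes, with a median log2 fold change of 7.20, which was the same with the 2 genes of under 3 monolayer counts set at their bounds. The desmosomal cadherin gene DSG1 rose from 0.589 ± 0.541 to 1604 ± 49.7 CPM (SD, n = 3), and the envelope gene LOR (loricrin) was at 0 in all 3 monolayer libraries and at 48.8 ± 16.5 CPM in ALI control, at least 551-fold higher against a floor of 3 counts over the group. SPRR1A and SPRR1B, small proline-rich envelope genes, rose by 9.82 and 9.65 on the log2 scale. FSCN1, an actin-bundling gene given as a target of GRHL3, and CDKN1A, a cell cycle inhibitor gene given as one of KLF4, fell by 1.92 and 0.89. Among 7 tested genes given as lowered, CDH2, VIM and ZEB1, genes of mesenchymal cells, fell by 5.81, 4.11 and 1.90, and ID2 and CDC25B rose by 3.67 and 1.95.

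On silencing, 5 of these 20 targets fell and 0 rose in edgeR, where none of the 9 factors passed. Of all 12806 genes 0.929% were called, 90 lower and 29 higher. At an unadjusted p of 0.05, 9 were lower and 2 higher. LOR fell from 48.8 ± 16.5 to 2.95 ± 1.51 CPM (SD, n = 3, log2 fold change -4.07, adjusted p = 0.00719) and FLG (filaggrin) from 339 ± 46.3 to 26.8 ± 7.19 CPM (-3.67, adjusted p = 0.0124). DSG1 fell from 1604 ± 49.7 to 229 ± 68.1 CPM (-2.81, adjusted p = 0.0124), the transglutaminase gene TGM5 from 18.1 ± 3.24 to 2.66 ± 0.299 CPM (-2.77, adjusted p = 0.00437), and the mucosal keratin gene KRT4 from 537 ± 149 to 136 ± 27.3 CPM (-1.98, adjusted p = 0.0138). TGM1 (425 ± 182 and 517 ± 103 CPM, log2 fold change 0.28) and CDH1 (410 ± 183 and 589 ± 108 CPM, 0.52), published targets of GRHL3 and GRHL2, did not pass. The median of the 20 was -0.50. The target that rose in DESeq2 (log2 fold change 1.31, adjusted p = 0.0158), with library 2 of both ALI groups left out and in 1 other alternative was CLDN4, a tight junction claudin, at 1.33 ± 0.33 (SE, adjusted p = 0.114) in edgeR. The count of targets that fell was 9 without ALI control library 2, also 9 when library 2 of both ALI groups was left out, where 1 target rose, 7 without silenced library 2, 8 in DESeq2, where 1 rose, and 2 without silenced library 1 or 3. Over all genes, 147, 428, 144, 275, 25 and 28 fell in these settings, in the same order. None of the 7 lowered targets passed in edgeR, DESeq2 or limma-voom, and 0 did at an unadjusted p of 0.05. The 15 proliferation genes had a median of 1.13, with 0 called in edgeR, DESeq2 and limma-voom, 2 at an unadjusted p of 0.05 and 6 higher when library 2 of both ALI groups was left out. From monolayer to ALI control 0 of the 15 passed in edgeR, and 0 did at an unadjusted p of 0.05 or in DESeq2. Between silenced cultures and monolayer 1 of the 15 rose in edgeR (MCM7, log2 fold change 0.96, adjusted p = 0.0424), 9 were higher at an unadjusted p of 0.05 and 7 rose in DESeq2. Of all 12806 genes, edgeR called 2023 higher and 2035 lower in that comparison, and DESeq2 called 2448 higher and 2312 lower. On silencing, KRT8, of 2 tested markers of simple epithelium, and VWF, the 1 tested of endothelium, passed in DESeq2 and not in edgeR. KRT18 passed in neither (log2 fold change 0.51, adjusted p = 0.733 in edgeR), and the endothelial markers PECAM1 and CDH5 had at most 2 counts in a library. KRT8, a keratin, was at 46.3 ± 21.4 CPM in control and 128 ± 36.6 CPM after silencing (log2 fold change 1.47, adjusted p = 0.122 in edgeR and 0.00709 in DESeq2), and VWF at 6.97 ± 3.75 and 1.88 ± 0.43 CPM (-1.88, adjusted p = 0.233 in edgeR and 0.0437 in DESeq2). Their part in the values of the targets was not tested.

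**Figure D5:**
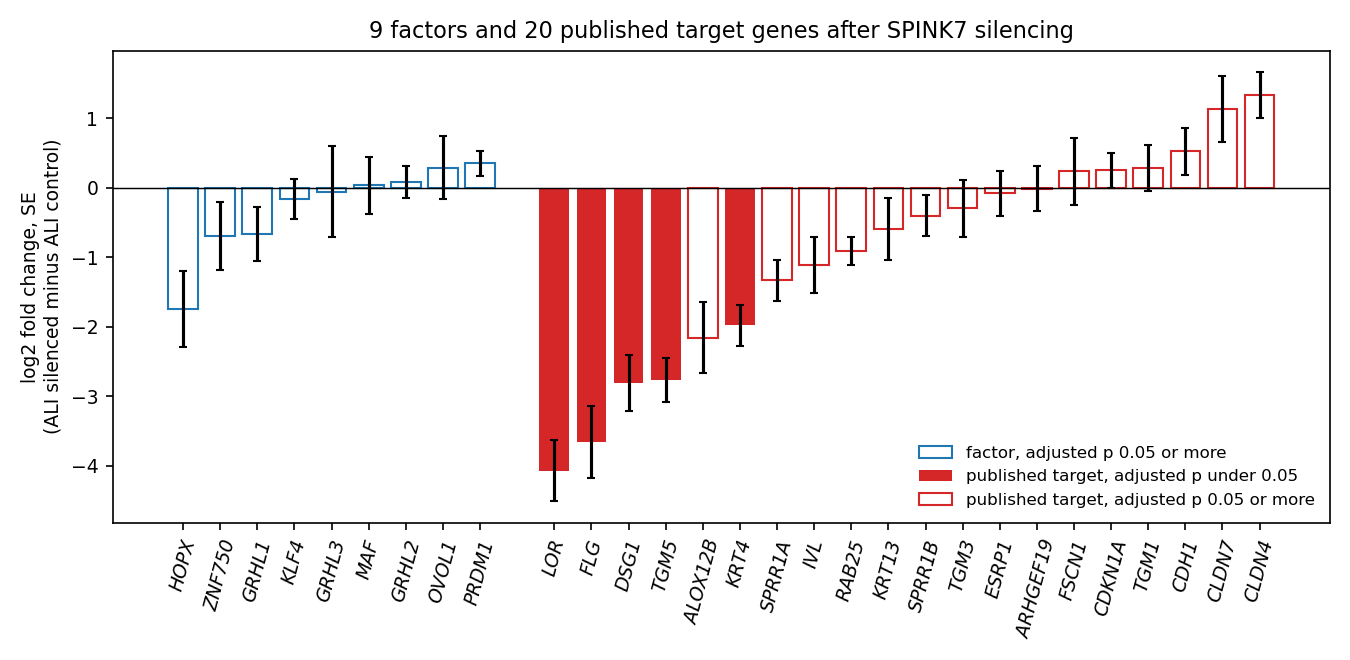
log2 fold change on SPINK7 silencing (y, with SE) for the 9 factors (blue outlines) and 20 published targets (red), ordered by size within each set. Filled bars passed an adjusted p of 0.05. The 5 filled bars are LOR, FLG, DSG1, TGM5 and KRT4, from -4.07 to -1.98, while the lowest factor is HOPX at -1.75.

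The factors differed in how alike their patterns were over the 9 libraries, measured by the root mean square difference of log2 CPM centred on each gene's mean. These distances are a description, and all points share the 9 libraries. GRHL3 and ZNF750 lay at 0.513 from each other, with OVOL1 at 0.588 from ZNF750 and 0.684 from GRHL3. KLF4, PRDM1 and GRHL2 were near neighbours too, at 0.418 between KLF4 and PRDM1 and 0.468 between KLF4 and GRHL2. MAF was farthest from HOPX (5.27).

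For each of the 9, the nearest of all tested genes was not another of the 9. With 12806 genes tested, this says little about the factors. For HOPX the nearest of all tested genes were KRT23, a keratin (0.304), PI3, the elafin gene (0.462), and SPRR2B (0.496). For GRHL1 they were GDA (0.402), KRT16, a keratin of activated keratinocytes (0.414), and LINC00520 (0.415). OVOL1 was nearest to CLDN1, a tight junction claudin (0.321), CRABP2 (0.414) and METRNL (0.434). GRHL3 was nearest to the receptor gene FGFR3 (0.418), CRYAB (0.494) and IMPA2 (0.502). Outside the 9, ZNF750 was nearest to RAET1E (0.395), PVRL4 (0.527) and ADAP2 (0.536), but GRHL3, at 0.513, lay nearer to it than PVRL4 and ADAP2.

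The factors of smaller range had closer neighbours. KLF4 was nearest to LAMA2 (0.140), TTC13 (0.173) and CDKN2B (0.230), and PRDM1 to DAPP1 (0.171), HEBP2 (0.177) and TPMT (0.178). GRHL2 was nearest to JMJD8 (0.0889), EIF2B1 (0.0961) and MTMR12 (0.109), and MAF to DUSP10 (0.162), RHOQ (0.169) and POLI (0.178). A gene of small range lies near many others by this measure, so distances of GRHL2 and HOPX are not on an equal footing.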

How the data were processed

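RNA was polyA-selected and sequenced from 9 EPC2 libraries, per the labels. The submitters' processing notes name MACS2, Bowtie, STAR 2.4.2a and hg19 with no roles. Which program counted reads, with what annotation and whether by strand, is not given in the sources used here. The authors deposited, per transcript row, a whole-number read count, not normalized, and an RPKM value. The 29800 rows (511 name several genes) were summed by symbol and chromosome to 24672 genes. Counts were TMM-scaled, filtered with filterByExpr (12806 genes) and fitted over the 3 groups without covariates in edgeR 4.0.16 (R 4.3.3) by the quasi-likelihood test, with Benjamini-Hochberg adjustment over all genes and a threshold of 0.05. The authors' RPKM served for levels between genes and as an alternative, on log2(RPKM + 1) and log2(RPKM + 0.1). DESeq2 1.42.0, limma 3.58.1 (voom), other filters, a replicate block and left-out libraries were further alternatives, 20 in all. The test was also run on simulated counts, drawn independently for each library. They therefore say nothing of the shared deviations of the ALI libraries numbered 2. Totals of 7641960 to 14009746 counts set the precision, and intervals cover counting error only where so named.

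Named genes are the 9 factors, SPINK7 and up to 4 called genes of largest change per list and comparison. The 3 genes outside the 9 nearest each factor are also named, with marker lists as counts and sums. A gene of the lists that the rule names is not reported here. The factors and lists were chosen with earlier results of these data known. Other marker lists, endothelial (5 genes, at most 10.0 CPM summed), melanocyte (5 genes, at most 3.28 CPM), leukocyte (7 genes, at most 95.4 CPM, in which CD68 rose by 1.30 on the log2 scale from monolayer to ALI control) and columnar (7 genes, at most 526 CPM, in which KRT8 fell by 2.92), gave at most 1 called gene per comparison in edgeR over all 9 libraries. DESeq2 called 2 leukocyte markers from monolayer to ALI control. VWF rose by 5.24 in that comparison in edgeR.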

Additional observations from a re-analysis of the deposited data

How the results depend on the processing

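The 9 factors gave 540 values over 20 alternatives and 3 comparisons, of which 498 kept direction and side of the threshold, 16 lost the call, 12 gained it and 14 changed sign, all in silencing and none past the threshold. The count of factors called on silencing was 1 (HOPX, lower) with DESeq2, with a replicate block (adjusted p = 0.045) and with library 2 of both ALI groups left out, and 0 when any 1 library was left out. Same-numbered ALI deviations correlated at 0.495, 0.577 and -0.01, and differently numbered ones at -0.691 to 0.637. These values do not settle whether the numbers pair the libraries. The replicate block raised the called factors to 9 in the other comparisons. Counts there stayed between 7 and 9. GRHL3 silencing was 0.0124 in limma-voom, 0.12 and 0.13 with RPKM at pseudocounts of 1 and 0.1, and -0.33 to 0.16 with 1 library left out. MAF silencing was -0.0017 and -0.0105 on those RPKM scales, -0.0389 with library 2 of both ALI groups left out, and -0.46 to 0.45 with 1 left out, and GRHL2 silencing -0.0746 to 0.23 with 1 left out. The causes were not tested. The RPKM scales moved the median of all genes on silencing to 0.10 and 0.14. Genes called on silencing over the whole table ranged from 3 higher and 25 lower (without silenced library 1) to 280 higher and 428 lower (library 2 of both ALI groups left out), beside 29 and 90. With monolayer libraries 2 and 3 summed, 1775 of 13082 genes rose and 1905 fell from monolayer to ALI control, beside 2601 and 2589 of 12806. The library numbers, 3 per group, limit what can be called, and monolayer counts of HOPX limit its fold.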
